A study of Homo sapiens with 12 samples.

Results

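hsa_circ_0006156 is a circular RNA (circRNA), 1 of the 6384 circRNA rows measured in this study and the most abundant or second most abundant circRNA in every library made with an antibody against IGF2BP2. It was chosen by its measured counts, namely its high level and rank with the antibody and its excess over the IgG background, so these are given as a description, without a test. The identifier is reported elsewhere to belong to the gene FNDC3B, from which the name circFNDC3B comes. The count table names no host gene, so the host is background and not a result. The study precipitated RNA from the triple-negative breast cancer line MDA-MB-231 with 5 µg of anti-IGF2BP2 monoclonal antibody (RIP) or 5 µg of normal rabbit IgG, from equal amounts of lysate, and sequenced 3 libraries for each of 4 groups, 12 in all. The resistant cells (Res) had acquired resistance to inhibitors of bromodomain and extra-terminal (BET) proteins and were kept under such an inhibitor until harvest. The parental cells (Sens) carried the label WT and had no treatment. The groups were therefore Res RIP, Res IgG, Sens RIP and Sens IgG. Resistance and the presence of the drug at harvest cannot be told apart in this design. The labels do not name the inhibitor, and they do not say whether the Res cells are a clone or whether the replicates are separate cultures, so the p-values measure a spread between libraries that may be technical.

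IGF2BP2 is an RNA-binding protein that attaches to many messenger RNAs, prefers sites with methylated adenosines, and supports the stability and translation of its targets, MYC among them. circRNAs arise when a downstream splice donor is joined to an upstream acceptor. The closed product has no free ends, resists exonucleases and can accumulate in cells, and some circRNAs hold RNA-binding proteins. FNDC3B encodes a membrane-associated protein with fibronectin type III domains. An RIP library reports how often an RNA was recovered with the protein, and the IgG library reports what is recovered without a specific antibody.

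Libraries were shallow. The Res libraries held 5179 to 8662 circRNA counts with the IGF2BP2 antibody and 3860 to 6036 with IgG, and the Sens libraries 4448 to 5561 and 1960 to 2989. ERCC spike-in transcripts, synthetic RNAs mixed into equal amounts of purified RNA, took 7.51% to 10.9% of all counts in Res RIP and 93.5% to 93.8% in Res IgG. They took 10.6% to 12.4% in Sens RIP and 97.8% to 97.9% in Sens IgG. Levels are given on 2 scales. RPM is the count per 1000000 circRNA counts of the library and describes the composition of the circRNAs recovered. The count per 1000 ERCC counts describes circRNA per amount of RNA put into the library. The table holds no linear transcripts, so the identity of the cells could not be checked against marker genes.

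In the IGF2BP2 precipitate of resistant cells, hsa_circ_0006156 had 151, 236 and 135 counts, which is 26366, 27245 and 26067 RPM. In the IGF2BP2 precipitate of parental cells it had 217, 155 and 198 counts, which is 39022, 32488 and 44514 RPM. All 3 Res RIP values lay below all 3 Sens RIP values on this scale. The circRNA thus made up 2.66% ± 0.0613 of circRNA counts in Res RIP and 3.87% ± 0.602 in Sens RIP (SD, n = 3 each). The 95% Wilson intervals of the single libraries, which cover counting error only, ran from 2.21% to 3.09% over the Res RIP libraries and from 2.78% to 5.10% over the Sens RIP libraries.

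**Figure D1:**
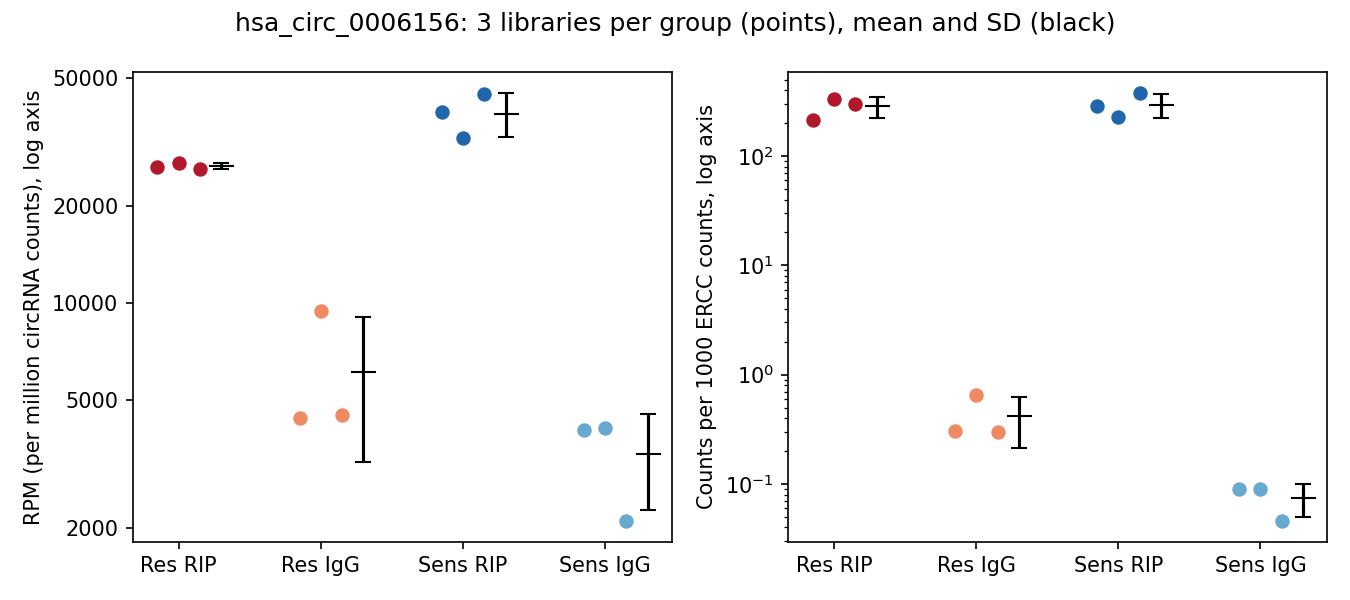
Level of hsa_circ_0006156 in each library (points) with the group mean and SD (n = 3), as RPM of circRNA counts on the left and as counts per 1000 ERCC counts on the right, both on log axes. On the left the Res RIP libraries, at 26067 to 27245 RPM, sit below the Sens RIP libraries, at 32488 to 44514 RPM. On the right these groups overlap, and the IgG groups lie far below them.

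Per 1000 ERCC counts, the picture between the RIP groups was different. The values were 216, 336 and 301 in Res RIP, against 284, 229 and 374 in Sens RIP. Each group spanned most of the range of the other, with means of 284 ± 61.8 in Res RIP and 296 ± 73.2 in Sens RIP (SD, n = 3 each). The RIP libraries held only 448 to 764 ERCC counts each, which limits the precision of this scale.

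By rank, hsa_circ_0006156 was first among all 6384 circRNA rows in each of the 3 Res RIP libraries. It was second in each of the 3 Sens RIP libraries, behind hsa_circ_0001573. That circRNA had 7, 7 and 6 counts in Res RIP, against 650, 556 and 518 in Sens RIP. No other circRNA exceeded hsa_circ_0006156 in any RIP library. Below it in the summed Res RIP counts came hsa_circ_0007883, with 365 counts against 522 for hsa_circ_0006156, a ratio of 1.43. In Sens RIP its 570 summed counts were 2.26 times the 252 of the circRNA ranked directly below it. The lead over the next lower circRNA was thus smaller in the resistant cells, a difference that was not tested. The 10 leading circRNAs together held 13.4% of the circRNA counts in Res RIP and 24.8% in Sens RIP.

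**Figure D2:**
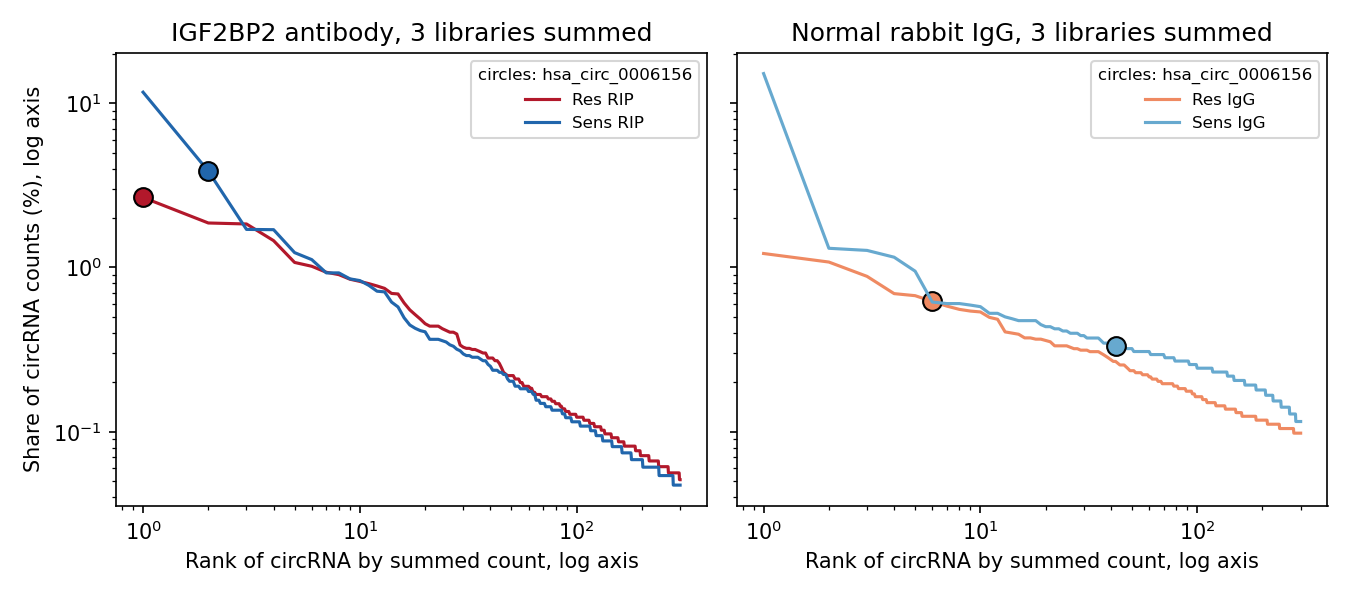
Share of circRNA counts against rank, both on log axes, for the 300 leading circRNAs of each group with the 3 libraries summed, RIP on the left and IgG on the right. Circles mark hsa_circ_0006156, which ranked 1 in Res RIP and 6 in Res IgG, and 2 in Sens RIP and 42 (tied) in Sens IgG.

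With IgG the circRNA was present in all 6 libraries at much lower counts. It had 17, 51 and 27 counts in Res IgG, which is 4404, 9451 and 4473 RPM. It had 12, 8 and 6 counts in Sens IgG, which is 4015, 4082 and 2109 RPM. Every Res IgG value exceeded every Sens IgG value, but Res IgG replicate 2 alone lay far above the other 5, and the lowest Res value exceeded the highest Sens value by little. Its rank was 15 to 17 (tied), 3 and 11 in the Res IgG libraries. In the Sens IgG libraries it was 32 to 41, 36 to 49 and 141 to 177, where many circRNAs shared the same low count. Per 1000 ERCC counts it had 0.303, 0.656 and 0.296 in Res IgG, against 0.0896, 0.0890 and 0.0463 in Sens IgG. On this scale the groups stood well apart.

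The IgG libraries of a line shared most of their circRNAs. Of the circRNAs seen in any library of a group, 72.0% were seen in all 3 in Res IgG and 77.7% in Sens IgG, compared with 16.3% in Res RIP and 13.3% in Sens RIP. The most frequent nonzero summed count of a circRNA was 7 in both IgG groups and 1 in both RIP groups. Whether the 3 IgG libraries of a line sampled the same few molecules was not tested. The change of the RIP to IgG ratio below is therefore also given with the IgG counts of each line added up and treated as 1 sample.

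The excess of RIP over IgG, for which the circRNA was chosen, was smaller in resistant cells. Mean RPM was 26559 ± 613 in Res RIP and 6110 ± 2894 in Res IgG, a ratio of 4.35. It was 38675 ± 6021 in Sens RIP and 3402 ± 1120 in Sens IgG, a ratio of 11.4 (SD, n = 3 in each group). From summed counts the ratio was 4.29 in Res, with an exact 95% interval of 3.44 to 5.40. In Sens it was 11.6, with an interval of 7.81 to 17.9. These intervals cover counting error only, while the libraries of Res IgG and Sens RIP varied by more than that. They are therefore not a test between the lines. On the ERCC scale the ratios of means were 679 in Res and 3947 in Sens. Among the 43 circRNAs with counts in all 12 libraries, its fitted RIP to IgG log2 ratio was the 4th highest in Res and the 2nd highest in Sens. That subset leaves out circRNAs without IgG counts. Over all 1307 circRNAs of the fit described below, it ranked 407 from the highest in Res and 112 in Sens. Of those, 88.6% had no count in at least 1 of the IgG groups.

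The rule that chose the circRNA used its levels in both lines, though it did not name their difference. An extreme difference between the lines was also known from earlier results when the circRNA was picked. The p-values between the lines are therefore not independent of that choice. The lines were compared in 1 edgeR quasi-likelihood fit over 1307 circRNAs, with TMM factors and Benjamini-Hochberg adjustment. TMM factors scale each library to a trimmed mean of log ratios. In the RIP, hsa_circ_0006156 was lower in Res, by mean RPM 0.687 times the Sens level. The fitted log2 fold change was -0.60 (SE 0.18), past the threshold at an adjusted p of 0.046 (edgeR). Of the 1307 circRNAs, 2.37% were called in this comparison and 1.07% were called lower in Res. In the fit on the 111 circRNAs with at least 10 counts in 3 libraries, 22 were called and 11 were called lower. By log2 fold change, hsa_circ_0006156 ranked 284 from the lowest of the 1307. Among the 43 with counts in all 12 libraries it ranked 17, and their median was -0.26. The call was lost in 17 of 24 alternative settings, with adjusted p-values from 0.000412 to 1. Leaving out 1 library kept the call only for Res IgG replicate 3, Res RIP replicate 2 and Sens RIP replicate 2. The log2 fold change was -0.31 without Res RIP replicate 1, -0.22 without Sens RIP replicate 1 and -0.30 without Sens IgG replicate 3, each with the same direction. With ERCC totals as library sizes the log2 fold change was -0.06 (adjusted p = 1, edgeR), which is 0.44 below the median of all tested circRNAs on that scale (0.39). On TMM factors that median was 0.

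The exact permutation test on RPM gave p = 0.1 for the RIP groups, the smallest p that 3 against 3 libraries allow, and 0.133 after adjustment over 4 such tests. Groups that did not overlap and were lower in Res were found for 4.06% of the tested circRNAs on this scale. On the ERCC scale the exact permutation test gave p = 0.9 (adjusted 0.9). From summed counts per ERCC count, the ratio of Res to Sens was 0.974, with an exact interval of 0.863 to 1.10 for counting error only.

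**Figure D3:**
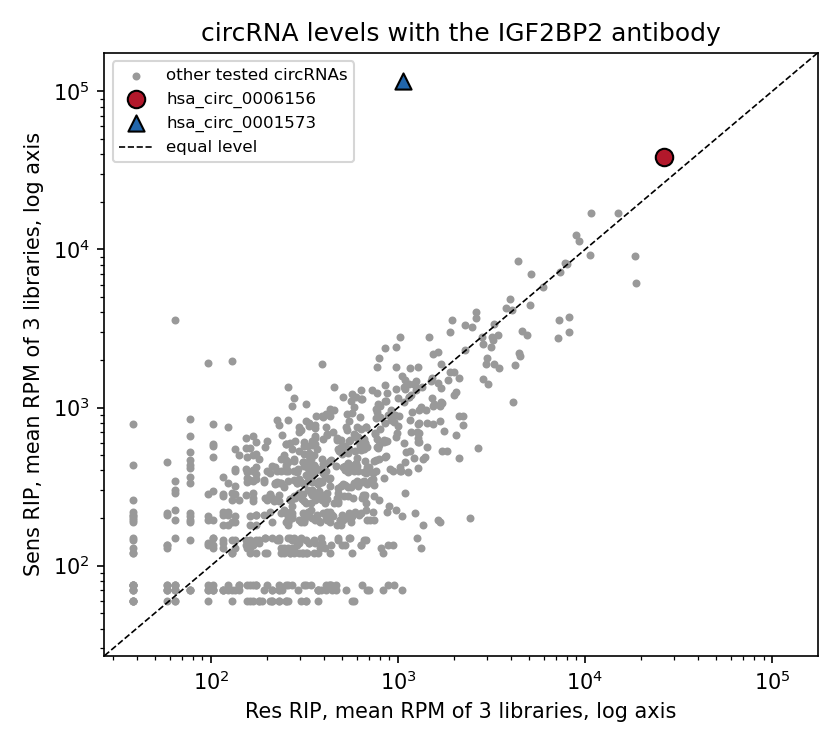
Mean RPM with the IGF2BP2 antibody in Res (x axis) and Sens (y axis), n = 3 libraries each, log axes, for the 813 tested circRNAs with counts in the RIP of both lines. hsa_circ_0006156 (circle) lies above the dashed line of equal levels, at 26559 RPM in Res and 38675 RPM in Sens, and hsa_circ_0001573 (triangle) lies far above it.

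The RPM scale depends on what else a library holds. hsa_circ_0001573 took 0.0808% to 0.122% of the circRNA counts in the Res RIP libraries and 11.6% to 11.7% in the Sens RIP libraries. With that circRNA left out of the totals, hsa_circ_0006156 made up 2.66% ± 0.0608 in Res RIP and 4.38% ± 0.681 in Sens RIP (SD, n = 3 each), 0.607 times the Sens share. The fit on circRNA totals without hsa_circ_0001573 gave a log2 fold change of -0.72 (adjusted p = 0.0225, edgeR), whereas leaving it out with TMM factors gave -0.33 (adjusted p = 0.649). Ratios between circRNAs of the same library need no scale. Against the 10 other circRNAs with the largest mean shares over the 6 RIP libraries, hsa_circ_0001573 among them, the summed count of hsa_circ_0006156 was relatively lower in Res for 8 and relatively higher for 2. Such a ratio also moves with the level of the other circRNA. Among the 8, hsa_circ_0007883 and hsa_circ_0008494 were called higher in Res RIP (log2 fold changes 0.95 and 1.53). The 2 with a relatively higher count, hsa_circ_0001573 and hsa_circ_0001756, were called lower (-6.86 and -0.72). Of these 10 circRNAs, the fit thus called 2 as higher in Res RIP, against 1.3% of all tested, and 2 as lower, against 1.07%. In the fit on the 111 circRNAs with at least 10 counts in 3 libraries, 11 were called in each direction. The median log2 fold change of the 10 was -0.20, against 0 over all tested circRNAs.

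In the IgG background, hsa_circ_0006156 was higher in Res, 1.80-fold by mean RPM and 5.58-fold per 1000 ERCC counts. The fitted log2 fold change was 1.86 (SE 0.31, adjusted p = 4.95e-08, edgeR). This direction was common. Of the 1307 tested circRNAs, 67.6% were called between the IgG groups and 49.3% were called higher in Res, and the median log2 fold change was 1.68. The value of hsa_circ_0006156 lay 0.18 above that median with TMM factors, at it with circRNA totals and 0.32 above it with ERCC totals, where the medians were 0.88 and 2.15. Of the tested circRNAs, 88.6% had no count in at least 1 of the IgG groups, so that these medians rest mostly on fitted values with a group at 0. Among the 43 circRNAs with counts in all 12 libraries the median was 0.03, and hsa_circ_0006156 had the 8th highest value. The exact permutation test gave p = 0.1 on both scales (adjusted 0.133), and groups that did not overlap and were higher in Res were found for 44.7% of tested circRNAs in RPM and 46.7% per ERCC count. With hsa_circ_0001573 left out of the circRNA totals, the log2 fold change in IgG was 0.65 (adjusted p = 0.0969, edgeR), and the shares of 0.612% ± 0.290 in Res IgG and 0.402% ± 0.133 in Sens IgG overlapped (SD, n = 3 each).

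The RIP to IgG ratio of hsa_circ_0006156 was lower in Res than in Sens. The fitted change was -2.46 on the log2 scale (SE 0.36, adjusted p = 1.69e-09, edgeR interaction test), and it stayed past the threshold in all 23 alternative settings, where it ranged from -2.70 to -1.36 with adjusted p-values from 1.48e-11 to 0.0107. With the IgG counts added up in each line, an estimate that assumes IgG to vary as much as the RIP libraries, the change was -2.31 (adjusted p = 2.06e-06, edgeR). Without Res IgG replicate 2, the library with the highest IgG count, it was -1.92 (adjusted p = 0.0107, edgeR). Without Sens IgG replicate 3 it was -1.85. All of these settings refit the same counts, and their p-values are not independent of how the circRNA was chosen. A lower ratio in Res was called for 13.4% of the tested circRNAs and a change in either direction for 19.0%. In the fit on the 111 circRNAs with at least 10 counts in 3 libraries, 57 were called, 40 of them lower. There hsa_circ_0006156 ranked 52 from the lowest. Of the 10 other circRNAs with the largest mean RIP shares, 5 were called lower and 1 higher in the main fit. The median change of all tested circRNAs was -1.32 with TMM factors, -1.41 with circRNA totals and -0.50 with ERCC totals. The value of hsa_circ_0006156 stood 1.15 below that median with TMM factors and 2.02 below it with ERCC totals. With circRNA totals its change of -1.42 lay at the median. From the lowest of the 1307 changes it ranked 567 with TMM factors, 507 with ERCC totals and 653 with circRNA totals. These medians and ranks, too, rest mostly on fitted values with an IgG group at 0. Among the 43 circRNAs with counts in all 12 libraries the median change was -0.65 with TMM factors, and hsa_circ_0006156 had the 7th lowest.

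**Figure D4:**
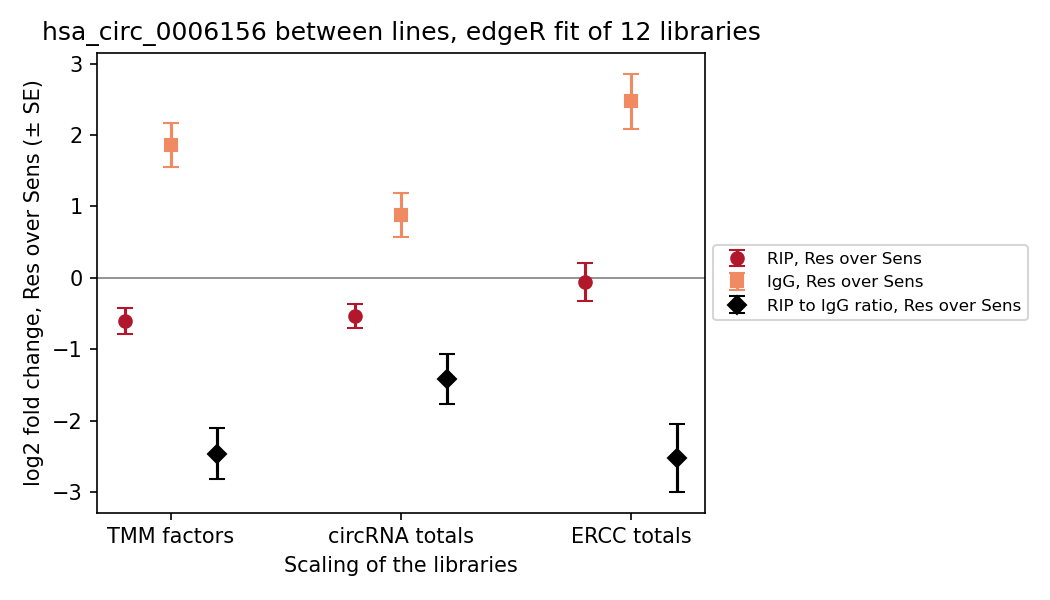
Fitted log2 fold change of hsa_circ_0006156 between lines, Res over Sens, with its SE, for the RIP, for IgG and for the RIP to IgG ratio, under 3 scalings of the 12 libraries. The ratio is below 0 under each scaling. The RIP change is -0.60, -0.54 and -0.06, and the IgG change is 1.86, 0.88 and 2.47.

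The RIP and IgG libraries contributed to this change in unequal measure, depending on the quantity. On the log2 scale the IgG change was larger in size than the RIP change under each of the 3 scalings, and with ERCC totals the RIP change was -0.06 while the IgG change was 2.47. On circRNA totals with hsa_circ_0001573 left out the order was the other way, with -0.72 in the RIP and 0.65 in IgG. The study itself used a difference. It deducted the IgG RPM from the RIP RPM in each line and then took Res minus Sens. The labels do not give the denominator of that RPM, and circRNA counts were used here. By that measure hsa_circ_0006156 had 20450 RPM in Res and 35273 RPM in Sens, and a delta of -14823 RPM (SE 3927). The RIP libraries contributed -12115 RPM of this, 81.7%, and the IgG libraries -2708 RPM, 18.3%.

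The delta of hsa_circ_0006156 was the lowest of all 6384 circRNA rows, and the next lowest was -8344 RPM. It remained the lowest without any 1 of the 12 libraries, with values from -17916 to -11903 RPM. A negative delta was found for 3214 rows, and hsa_circ_0006156 accounted for 1.41% of their sum. The delta is a difference in RPM, on which an equal ratio gives a larger value for an abundant circRNA, and it is a description here, without a test. With all counts in the denominator, ERCC included, the delta was -10272 (SE 3311) and ranked 2 from the lowest. In CPM with TMM factors it was -26546 (SE 5892) and also ranked 2 from the lowest. With hsa_circ_0001573 left out of the denominator the delta was -19290 RPM (SE 4357). Per 1000 ERCC counts it was -12.0 (SE 55.3), so the sign was the same but the SE exceeded the value, and 6 circRNAs had a lower delta.

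The circRNAs most alike in profile were found by the root-mean-square difference of centred log2 CPM over the 12 libraries. The same libraries picked them, so a pattern they share with hsa_circ_0006156 is no separate result. The nearest was hsa_circ_0021570, with a difference of 0.42 on the log2 scale. Like hsa_circ_0006156 it was recovered mainly with the IGF2BP2 antibody, with 95, 103 and 87 counts in Res RIP, against 11, 11 and 9 in Res IgG. In the parental cells it had 88, 88 and 75 counts in Sens RIP, against 2, 2 and 2 in Sens IgG. Its level in the RIP was 15093 ± 2775 RPM in Res and 17044 ± 1320 RPM in Sens (SD, n = 3 each), and the groups overlapped (log2 fold change -0.25, SE 0.20, adjusted p = 0.706, edgeR). The fitted log2 change of its RIP to IgG ratio was -2.55 (SE 0.55), on 31 summed counts in Res IgG and 6 in Sens IgG. This change is part of the profile it was picked by and is given as a description. Count for count, hsa_circ_0006156 was 1.83 times as abundant as hsa_circ_0021570 in Res RIP and 2.27 times in Sens RIP.

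The second nearest was hsa_circ_0000417, with a difference of 0.51 on the log2 scale. It was rarer, with 20, 41 and 16 counts in Res RIP and 26, 17 and 20 in Sens RIP. With IgG it had 2 counts in 1 Res library and 0 in the other 5. Its RIP level in Res did not pass the threshold against Sens (log2 fold change -0.20, SE 0.31, adjusted p = 0.924, edgeR). Its counts in IgG were too few to measure a change in its RIP to IgG ratio.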

How the data were processed

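RNA recovered with anti-IGF2BP2 or rabbit IgG was sequenced in 12 libraries, and groups and replicate numbers came from the sample titles. The authors deposited raw counts per circRNA and per ERCC row, whole numbers without scaling. Per the labels' protocols the authors scaled their data to the spike-in with RUVSeq, which these counts do not carry. GRCh37 is listed in the submitters' processing notes. The aligner, the circRNA caller and the counting rule are not given in the sources used here. No identifier was matched to a gene (0 in the RefSeq gene table). hsa_circ_0006156 and the lists were chosen with earlier results of these data known.

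ERCC rows (7.51% to 97.9% of counts) entered neither the library sizes nor the tests of the main fit, and served as the scale only where ERCC is named. edgeR 4.0.16 (R 4.3.3) was run on the 1307 circRNAs that reached 2 counts in 3 or more libraries, with TMM factors, 1 coefficient per group and a threshold of 0.05. Its prior degrees of freedom were infinite, so the spread was estimated over all circRNAs together. SEs were derived from the test's F. Only the RIP comparison of the lines was tried on simulated data first, with a set spread and IgG means shared by the lines. The IgG comparison and the interaction were not tried in this way. Permutation tests (scipy 1.17.1) were exact and two-sided. Alternatives were other scalings and filters, DESeq2 1.42.0, limma-voom (limma 3.58.1), a replicate block, the 6 libraries of a comparison, and each library left out. 4 added after seeing the data left out hsa_circ_0001573 or summed IgG libraries. Named circRNAs were hsa_circ_0006156, its neighbour in rank in each RIP group, and the 2 nearest in profile. The comparison set was the 10 other circRNAs with the largest mean RIP shares. A circRNA with no count may have up to 3 counts, 0.0346% to 0.153% of a library's circRNA counts.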

Additional observations from a re-analysis of the deposited data

Results flagged for a closer look

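The effect of the antibody on hsa_circ_0006156 differed between the lines by the interaction test. The RIP to IgG log2 ratio was lower in Res than in Sens by a fitted change of -2.46 (adjusted p = 1.69e-09, edgeR), with 522 summed RIP and 95 summed IgG counts in Res and 570 and 26 in Sens. The IgG counts behind it are few, 17 to 51 per library in Res and 6 to 12 in Sens. Of the 1307 tested circRNAs, 19.0% were called in this comparison and 13.4% were called lower, and the median change was -1.32. With circRNA totals the change of hsa_circ_0006156, -1.42, lay at the median of -1.41. The circRNA was picked with an extreme difference between the lines already known, so this p-value is not independent of the choice.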

How the results depend on the processing

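The change of the RIP to IgG ratio between lines and its direction held in all 23 alternatives, and without 1 library it lay between -2.70 and -1.85. The lower RIP level in Res kept its direction in 24 of 24 alternatives and its call in 7. The log2 fold change was -0.54 with circRNA totals, -0.056 with ERCC totals, -0.45 with RLE factors (adjusted p = 0.227), -0.45 with DESeq2 (adjusted p = 0.399), -0.59 with limma-voom, -0.38 with no filter and -0.33 with TMM factors and hsa_circ_0001573 left out. Without 1 library it lay between -0.71 and -0.22, and the call was lost in 9 of 12 cases. The higher IgG level in Res lost its call only on circRNA totals with hsa_circ_0001573 left out (0.65), and without 1 library it lay between 1.32 and 2.09.

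The fitted RIP to IgG log2 ratio, 5.53 in Sens and 3.07 in Res with TMM factors, moved with the scaling. In Res it was 2.10 with circRNA totals, 9.39 with ERCC totals, 1.71 with at least 10 counts in 3 libraries and 2.10 on circRNA totals with hsa_circ_0001573 left out. In Sens it was 3.52, 11.9, 3.54 and 3.46. Without 1 library it lay between 2.83 and 3.61 in Res and between 4.94 and 5.72 in Sens. The delta was -10272 with all counts, ERCC included, in the denominator, -26546 in TMM CPM and -12.0 per 1000 ERCC counts.

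With the replicate number as a block, the RIP log2 fold change was -0.62 (adjusted p = 0.0619), which ended the call, and the calls in that comparison went from 31 to 17. Same-numbered libraries of different groups did not deviate together (median r = -0.04 over 18 pairs, 0 above 0.1), so the numbers are not taken to pair them.

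Over the 1307 tested circRNAs, the 31 calls between the RIP groups became 58 with ERCC totals and 53 with limma-voom. They became 17 of 6384 tested with no filter, and 8 without Res IgG replicate 2, where the prior degrees of freedom were 6.06. The 883 between the IgG groups became 396 with DESeq2 and 77 of 111 tested with the stricter filter. The 248 for the ratio became 132 with DESeq2 and 802 with limma-voom. With no filter they became 116 of 6384 tested, and with the stricter filter 57 of 111 tested. Without Res IgG replicate 2 there were 82, and without Sens IgG replicate 3 there were 158.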

Other observations

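The share of hsa_circ_0006156 varied between replicates by an SD of 0.0613 percentage points in Res RIP, where counting error alone would give 0.204, and by 0.602 in Sens RIP, where it would give 0.276. In IgG the SD was 0.289 in Res, where counting error would give 0.112, and 0.112 in Sens, where it would give 0.115.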
